A study of Homo sapiens with 8 samples.

Results

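The mTOR inhibitor AZD8055 was compared between SNU1079 and SSP25, 2 cell lines of human cholangiocarcinoma (CCA, bile duct cancer), gene by gene, to ask which mRNAs moved in 1 line and not in the other. Each line was labelled as wildtype, though the paper that reported the data found IDH1 and ARID1A mutations in SNU1079. Each line was grown for 48 hours in 1 of 4 conditions. These were vehicle (0.01% DMSO), BETp (40 nM ARV825, a degrader that couples BET proteins to cereblon, part of a ubiquitin ligase), mTORi (50 nM AZD8055) and BETp + mTORi, called the combination, whose doses the labels do not give. The mTORi effect in a line was the mean of 2 pair differences on the log2(TPM + 1) scale, mTORi minus vehicle and combination minus BETp. The line difference was the effect in SSP25 minus the effect in SNU1079. It was taken for genes that reached 5 TPM in at least 2 of the 4 libraries of each line, 9139 of 56269 genes in the deposited tables. Of the genes nearest to that limit, ARHGAP27, HERC2P9 and PURA lay inside it at 5.01 TPM, with line differences of 0.23, 0.56 and -0.15, and PRPF40B, TOE1 and TULP4 lay outside it at 4.99 TPM, with 0.22, -0.25 and 0.28. PHGDH, the enzyme that opens serine synthesis, was not among the 9139, since it was at most at 0.24 TPM in SNU1079. In SSP25 it was at 85.5 TPM with vehicle, 24.4 TPM with mTORi, 65.4 TPM with BETp and 18.5 TPM with the combination.

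mTOR is a kinase that joins nutrient and growth factor signals to protein synthesis, lipid synthesis and cell growth, and holds back lysosome formation and autophagy. AZD8055 blocks its catalytic site and so acts on both mTOR complexes. Cells that leave the cycle lower the mRNAs of the DNA replication and mitosis machinery, while lysosomal genes are switched on by the factors TFEB and TFE3 when mTOR is inhibited.

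There was 1 library for each line and treatment, so within a line an mTORi effect cannot be told apart from a difference between single cultures. The 8 libraries had TPM totals of 998559 to 999362 and 13308 to 14526 genes at 1 TPM or more, and the read depth behind a value is unknown. Of 12 bile duct markers, 11 reached 1 TPM in SNU1079 and 9 in SSP25. CFTR, a chloride channel of bile duct cells, was under that level in both lines, and CDH1, E-cadherin, in SSP25. The summed level of these markers was 7988 to 11500 TPM in SNU1079 and 3329 to 3897 TPM in SSP25. Of 10 leukocyte and endothelial markers, 1 reached 1 TPM in SNU1079 and 3 in SSP25, and of 11 hepatocyte markers 5 and 1 did. Of 10 mesenchymal markers, 4 reached 1 TPM in SNU1079, with a summed level of 351.1 to 1061 TPM, and 6 in SSP25, with 26.2 to 44.3 TPM. The part of these markers in the results was not tested. Transcripts of the mitochondrial genome took 14.4% to 19.2% of the TPM total in SNU1079 and 5.99% to 10.1% in SSP25. Fold changes on the log2(TPM + 1) scale understate the changes of low genes.

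The lines shared part of the response. DDIT4, a stress-induced brake on mTOR, was at 129.8 TPM with vehicle and 30.6 TPM with mTORi in SNU1079, against 73.2 and 26.7 TPM for SSP25. Its mean effect was -2.02 and -1.73, a line difference of 0.29 ± 0.22 (SE of the limma fit). SESN2, a sestrin that restrains mTOR complex 1, had effects of -0.79 and -0.53. GAS5, a host gene of small nucleolar RNAs whose decay depends on translation, had 0.53 and 0.38. The mRNA of the inhibited kinase itself, MTOR, was at 9.21 to 13.3 TPM in SNU1079 and 22.3 to 24.7 TPM in SSP25, with effects of -0.39 and -0.12. The median effect over all 9139 genes was -0.14 in SNU1079 and -0.13 in SSP25, so effects within a line are best read against that shift. Quantile normalization makes the libraries alike in distribution and so moved both to 0.00 by design. Rescaling without mitochondrial-genome and ribosomal protein genes moved them to -0.04 and -0.06. The median line difference was 0.02.

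No gene passed the test of the line difference over the whole table. The test was limma with line-by-drug terms on 16060 genes, 2 residual degrees of freedom and Benjamini-Hochberg adjustment. Its spread came only from departures from additivity in each line, which hold any interaction of the drugs as well as differences between single libraries. Of the 9139 genes, 0 (0%) had an adjusted p under 0.05, while 1452 (15.9%) had an unadjusted p under 0.05, 880 (9.63%) with SSP25 above SNU1079 and 572 (6.26%) with SSP25 below. The mTORi effect within a line passed for 1 gene (0.0109%) in SNU1079, the non-coding transcript DLEU2_6, and for 0 in SSP25. When the same model was fitted to the 9139 genes alone, 99 (1.08%) passed for the line difference, 71 (0.777%) with SSP25 above and 28 (0.306%) with SSP25 below. That number moved between 0 and 419 with the scaling, the variance model or 1 library left out, so a call in that fit is named below as such and not as a change. In that fit the effect within SNU1079 passed for 137 genes (1.5%) higher and 920 (10.1%) lower, and within SSP25 for 183 (2%) higher and 629 (6.88%) lower, which is 1057 genes (11.6%) and 812 genes (8.88%).

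Another description used the 4 pair differences alone. Both SSP25 values lay above both SNU1079 values in 2545 genes (27.8%) and below them in 1947 (21.3%), 4492 in all (49.2%). With a line difference of at least 1 as well, 33 genes (0.361%) lay above and 75 (0.821%) below, 108 in all (1.18%). An exact two-sided permutation test of 2 pairs against 2 cannot give a p under 0.333. By size, 241 genes were lower in SNU1079 alone (2.64%), meaning an effect of at least 0.5 with both pairs in that direction and under 0.25 in the other line, and 255 were lower in SSP25 alone (2.79%). Higher values in 1 line alone were seen for 20 genes in SNU1079 (0.219%) and 70 in SSP25 (0.766%). Opposite effects of at least 0.25 in each line were found in 146 genes with SNU1079 higher (1.6%) and 112 with SSP25 higher (1.23%).

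**Figure D1:**
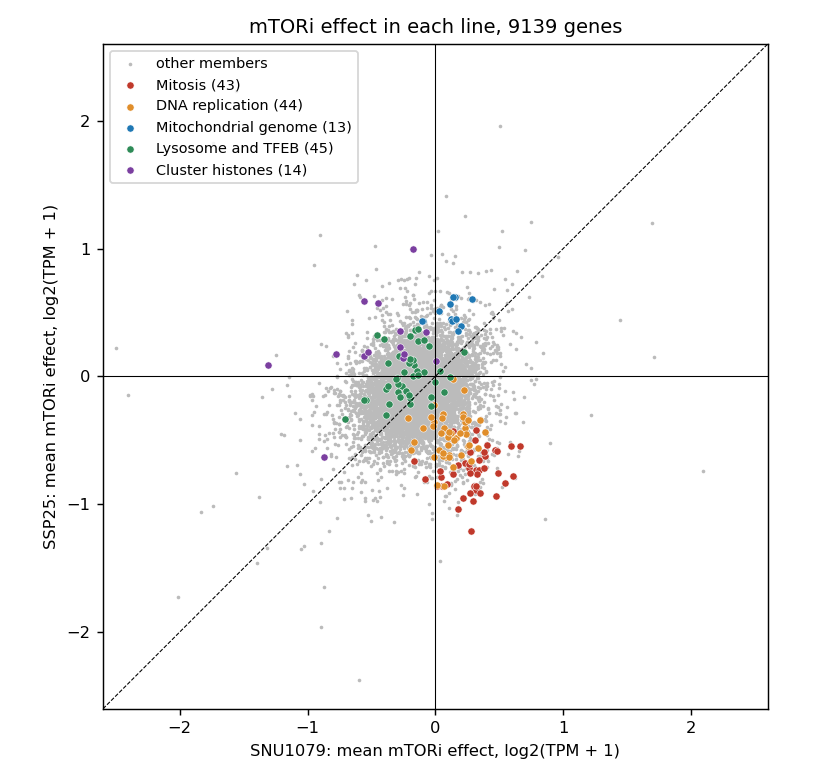
Mean mTORi effect in SNU1079 (x axis) against SSP25 (y axis), both in log2(TPM + 1), for 9139 genes, with 5 gene lists in colour and the dashed line marking equal effects; 4 genes lie beyond the axes. Mitosis genes lie below the line, at a median line difference of -1.04, and mitochondrial-genome transcripts above it, at 0.33.

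The genes of cell division formed the group with the largest line difference of the 32 lists that had at least 5 genes measured. Of 45 listed mitosis genes, 43 were measured, and in all 43 both SSP25 pairs lay below both SNU1079 pairs, against 21.3% of all genes. An unadjusted p under 0.05 was found for 36 of 43, against 6.26%, and 3 of them (CENPA, NEK2 and PTTG1) passed in the fit over the 9139 genes alone, against 0.306%. The median line difference was -1.04, with a range from -1.48 to -0.50. In SSP25 all 43 were lower with mTORi in both pairs, against 55.7% of all genes. The median pair differences there were -0.56 without BETp and -0.91 with it. In SNU1079 the median was 0.73 without BETp and -0.11 with it, so the higher values there came from the library with mTORi alone. Fewer dividing cells and less of these mRNAs per cell cannot be told apart in bulk RNA.

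The mean log2 level of the 43 genes shows which libraries made the difference. In SNU1079 it was 4.91 with vehicle and 4.80 with BETp, then 5.61 with mTORi and 4.68 with the combination. The SSP25 values were 5.64, 5.21, 5.05 and 4.30 in the same order. The mTORi library of SNU1079 stood above the other 3 of its line, while in SSP25 the level was lower with each drug and lowest with the combination. Without the vehicle or the mTORi library of SNU1079 the median line difference was -0.64, and without its BETp or combination library it was -1.47, so the size, but not the direction, depended on them.

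**Figure D2:**
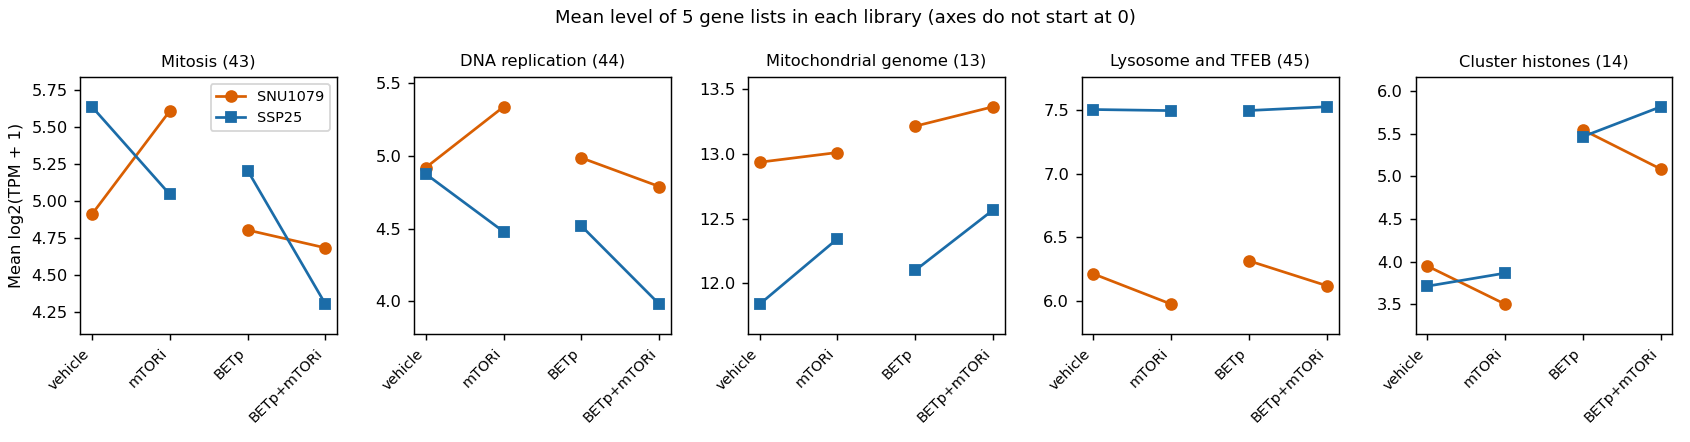
Mean log2(TPM + 1) of 5 gene lists in each of 8 libraries, with lines joining the libraries without and with mTORi in each background and numbers of genes in brackets; the vertical axes do not start at 0. Mitosis genes went from 4.91 to 5.61 in SNU1079 without BETp and from 5.64 to 5.05 in SSP25, while lysosomal genes stayed near 7.50 in SSP25.

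CENPA, the histone H3 variant that marks centromeres, had the lowest value of the list. In SNU1079 it was at 21.8 TPM with vehicle and 35.4 TPM with mTORi, and at 20.3 TPM with BETp and 18.6 TPM with the combination. For SSP25 they were 34.9 and 15.7 TPM, and at 22.9 and 8.66 TPM. The SSP25 libraries with mTORi held the 2 lowest of all 8 values, and the line difference was -1.48 ± 0.29 (SE, adjusted p = 0.233 in limma). CCNB2, cyclin B2, an activator of CDK1, went from 25.5 to 50.2 TPM and from 23.5 to 23.6 TPM in SNU1079. In SSP25 it went from 73.0 to 45.1 TPM and from 54.8 to 23.4 TPM, a line difference of -1.42 ± 0.35 (adjusted p = 0.25 in limma). Its 2 SNU1079 pairs thus differed from each other, at 0.95 and 0.00.

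NEK2, a kinase that separates centrosomes, was higher with mTORi in both SNU1079 pairs, from 35.4 to 64.7 TPM and from 31.4 to 37.0 TPM. In SSP25 it went from 35.9 to 23.0 TPM and from 30.8 to 14.3 TPM, and the line difference was -1.38 ± 0.26. CDC20, an activator of the anaphase-promoting complex, went from 63.5 to 106 TPM and from 66.7 to 60.1 TPM in SNU1079, while the SSP25 values went from 177 to 107 TPM and from 140.3 to 59.4 TPM. PTTG1, the securin that this complex destroys, had a line difference of -1.18 ± 0.25. PLK1, a kinase needed for mitotic entry, had one of -1.22 ± 0.28, and FOXM1, a transcription factor of this program, -1.09 ± 0.29. The smallest differences in the list were those of CKS2, a CDK1 partner, at -0.50 ± 0.23, and INCENP, a chromosomal passenger protein, at -0.57 ± 0.19. MKI67, a proliferation marker, was at -0.72 ± 0.34.

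By role, the 9 cyclins, CDK1 and factors of the anaphase-promoting machinery had a median line difference of -1.18, the 8 mitotic kinases -0.96, the 6 kinesin motors -0.98, the 8 kinetochore and passenger proteins -1.05 and the 12 spindle and cytokinesis proteins -1.05. These groups were drawn up after the values were known. RNASEH2A, a subunit of the enzyme that removes RNA from DNA, and FAM64A, a regulator of the metaphase to anaphase step, lay outside the list with line differences of -1.41 ± 0.23 and -1.39 ± 0.30, and both passed in the fit over the 9139 genes alone. RNASEH2A was higher with mTORi in both SNU1079 pairs, from 29.9 to 55.5 TPM and from 32.3 to 42.0 TPM, and lower in both SSP25 pairs, from 70.7 to 46.7 TPM and from 56.1 to 27.6 TPM.

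The promoters of mitosis genes carry 2 short elements that are known from work on the G2 and M phase program, and they are printed to show how alike the genes of this group are upstream. The elements searched were CHR (cell cycle genes homology region, TTTGAA) and the CCAAT box (CCAAT), on both strands, in RefSeq windows from 250 bases before to 50 after a start on GRCh38.p14. CHR was found in 31 of 44 windows of 37 matched mitosis genes (70.5%), against 9.79% of the windows of all measured genes and 15.2% of 35116 windows in all. CCAAT was found in 36 of 44 (81.8%), against 35.3% and 34.6%. Among the genes with a non-overlapping line difference of at least 1 and SSP25 below, CHR was in 29 of 60 windows (48.3%). That set shares genes with the mitosis list, CENPA among them, so it is not a separate observation. Among the genes that passed with SSP25 below in the fit over the measured genes alone, CHR was in 2 of 24 windows (8.33%). That share was near the 9.79% of all measured genes. Below are the 120 bases before the start of 5 genes, 5′ to 3′ on the strand of the gene, with capitals marking CHR and CCAAT letters.
CENPA, chr2:26785936-26786055, + strand: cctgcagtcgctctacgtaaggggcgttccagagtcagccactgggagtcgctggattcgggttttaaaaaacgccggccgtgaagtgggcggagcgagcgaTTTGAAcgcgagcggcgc
CCNB2, chr15:59105026-59105145, + strand: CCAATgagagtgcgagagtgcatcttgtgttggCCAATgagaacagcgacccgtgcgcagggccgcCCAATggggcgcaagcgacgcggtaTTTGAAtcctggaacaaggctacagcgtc
CDC20, chr1:43358861-43358980, + strand: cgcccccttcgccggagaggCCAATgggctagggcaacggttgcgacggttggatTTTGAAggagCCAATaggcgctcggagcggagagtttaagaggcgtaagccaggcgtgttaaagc
PLK1, chr16:23678769-23678888, + strand: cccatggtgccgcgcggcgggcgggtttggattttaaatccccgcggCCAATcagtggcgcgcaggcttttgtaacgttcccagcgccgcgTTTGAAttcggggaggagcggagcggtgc
NEK2, chr1:211675622-211675741, - strand: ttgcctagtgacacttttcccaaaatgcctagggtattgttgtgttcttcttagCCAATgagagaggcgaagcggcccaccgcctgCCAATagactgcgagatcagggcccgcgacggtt
CENPA, CCNB2, CDC20 and PLK1 each held 1 CHR and NEK2 held 2 CCAAT boxes and no CHR in these bases. A match of letters is a description and does not show that a factor binds there.

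DNA replication genes followed the same direction with smaller values. Of 44 measured of 46 listed, 33 had both SSP25 pairs below both SNU1079 pairs, against 21.3% of all genes, and 0 had them above. An unadjusted p under 0.05 was found for 20, against 6.26% of all genes, and 0 passed in either fit. The median line difference was -0.61, from -0.95 for RRM2 to -0.12 for POLD2, and the medians of the pairs were 0.41 and -0.19 in SNU1079 and -0.42 and -0.51 in SSP25. Without the vehicle or the mTORi library of SNU1079 the median was -0.29, and without its BETp or combination library -0.89. Of the list, 40 of 44 genes were lower in both SSP25 pairs, against 55.7% of all genes. In both SNU1079 pairs 4 of 44 (9.09%) were higher, against 13.7% of all genes.

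Enzymes that supply deoxynucleotides had a median line difference of -0.89 over 5 genes. RRM2, the small subunit of ribonucleotide reductase, was at 93.8 TPM with vehicle and 159 TPM with mTORi in SNU1079, and at 131 TPM with BETp and 115 TPM with the combination. In SSP25 it was at 88.7, 60.8, 82.3 and 47.1 TPM in that order, a line difference of -0.95 ± 0.32. The 16 origin licensing and helicase genes had a median of -0.61 and the 16 polymerase, clamp and loader genes -0.51. MCM7, a subunit of the replicative helicase, went from 89.2 to 130.1 TPM and from 81.2 to 79.7 TPM in SNU1079, while the SSP25 values went from 117 to 87.8 TPM and from 91.8 to 57.3 TPM.

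Replication promoters held another element. The E2F motif TTTNNCGC was found on either strand in 22 of 48 windows of 37 matched replication genes (45.8%), against 10.4% of the windows of all measured genes and 6.89% of all windows, and CHR was found in 1 of 48. Promoters of 2 helicase genes are printed to set beside those of the mitosis genes, in the same layout, with capitals marking the E2F letters.
MCM7, chr7:100101398-100101517, - strand: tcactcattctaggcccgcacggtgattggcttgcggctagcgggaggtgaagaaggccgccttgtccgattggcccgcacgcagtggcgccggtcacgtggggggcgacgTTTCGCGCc
MCM6, chr2:135876444-135876563, - strand: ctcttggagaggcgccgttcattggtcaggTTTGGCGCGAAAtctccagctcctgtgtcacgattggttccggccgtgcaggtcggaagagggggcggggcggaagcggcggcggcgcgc
In MCM6 2 matches on opposite strands overlap, and the gene had a line difference of -0.62 ± 0.24. MCM7 has 3 windows in the table, of which this is the one with a match in the bases before its start.

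Other genes with SSP25 below SNU1079 had various roles. HNRNPC, a protein that packages nascent pre-mRNA (chromosome 14, 21677295 to 21737653, minus strand, GRCh37), was at 719, 696, 693 and 764 TPM with vehicle, BETp, mTORi and the combination in SNU1079. The SSP25 values were 585, 526, 409 and 362 TPM, and its line difference was -0.57 ± 0.09 (adjusted p = 0.227 in limma). The 2 SSP25 libraries with mTORi held its lowest values. HNRNPA1, a splicing regulator, had effects of 0.39 and -0.34, and NPM1, the nucleolar chaperone nucleophosmin, had 0.16 and -0.34. CAV1, caveolin 1, a coat protein of membrane pits, went from 156 to 191 TPM and from 159 to 223 TPM in SNU1079, while the SSP25 values went from 265 to 172 TPM and from 162 to 90.8 TPM. Its line difference was -1.11 ± 0.12. HAUS4, a subunit of the augmin complex that seeds spindle microtubules, was higher in SNU1079 alone, from 66.8 to 104 TPM and from 77.8 to 109.9 TPM, with an effect of -0.24 in SSP25. All 5 genes passed in the fit over the 9139 genes alone.

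Among genes lower in SNU1079 alone, the smallest adjusted p was that of SCARB1, the receptor that takes up cholesterol from high-density lipoprotein (chromosome 12, 125261402 to 125367214, minus strand, GRCh37). In SNU1079 it was at 146 TPM with vehicle and 143 TPM with BETp, then 65.2 TPM with mTORi and 64.7 TPM with the combination. In SSP25 it was at 89.2, 99.2, 89.0 and 98.6 TPM. The pair differences were -1.15 and -1.13 against 0.00 and -0.01, so the pairs of each line nearly coincided, and the line difference was 1.14 ± 0.09 (adjusted p = 0.194 in limma). CD82, a tetraspanin, went from 29.1 to 12.1 TPM and from 20.3 to 8.81 TPM in SNU1079. In SSP25 it was an order of magnitude more abundant, at 239.7, 199, 259 and 167 TPM with vehicle, BETp, mTORi and the combination, and its effect there was -0.07.

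Secreted proteins were among the other genes of this kind, while the secreted cytokines CXCL8 and CSF2 were higher in SNU1079 alone only by the size limits. CXCL8 had effects of 0.84 and 0.18, and CSF2 of 0.63 and 0.22. The CXCL8 pairs overlapped between the lines, at 1.21 and 0.48 in SNU1079 and -0.18 and 0.54 in SSP25. Its level was 3.5 to 14.0 TPM in SNU1079 and 145.7 to 327.9 TPM in SSP25. CSF2 was higher in both SSP25 pairs too, at 0.32 and 0.11. CSF1, the macrophage colony-stimulating factor, went from 143 to 70.1 TPM and from 124 to 64.3 TPM in SNU1079, while the SSP25 values went from 373 to 312 TPM and from 345 to 332 TPM. DKK1, an antagonist of WNT signalling, had effects of -0.77 and 0.11, SPP1, osteopontin, -0.75 and -0.11, and MMP7, matrilysin, -1.14 and -0.15. LCN2, an iron-siderophore binding protein, had pairs of -1.81 and -0.68 in SNU1079 and -0.11 and 0.44 in SSP25, a line difference of 1.41 ± 0.40. SMPD1, the lysosomal acid sphingomyelinase, had effects of -0.64 and 0.23. Of these, CSF1, DKK1, SPP1 and SMPD1 passed in the fit over the 9139 genes alone.

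Chaperones of the endoplasmic reticulum were lower in both SNU1079 pairs in 23 of 25 genes, against 57.7% of all genes. In both SSP25 pairs 15 of 25 (60%) were lower, near the 55.7% of all genes. Both SSP25 pairs lay above both SNU1079 pairs in 13 of 25 genes, against 27.8% of all genes, and the median line difference was 0.25. HSPA5, the chaperone BiP and main sensor partner of the unfolded protein response, was at 231, 193, 152 and 115 TPM with vehicle, BETp, mTORi and the combination in SNU1079. In SSP25 it stayed between 328 and 359 TPM, and the line difference was 0.72 ± 0.09. HERPUD1, a member of the degradation machinery, had effects of -0.54 and -0.08. ERO1A, an oxidase of the same compartment, went the other way, with -0.28 and -0.59. The HSPA5 promoter is printed because 25 of 30 windows of 24 matched chaperone genes held CCAAT (83.3%), against 35.3% of those of all measured genes, with the CCAAT letters in capitals.
HSPA5, chr9:125241344-125241463, - strand: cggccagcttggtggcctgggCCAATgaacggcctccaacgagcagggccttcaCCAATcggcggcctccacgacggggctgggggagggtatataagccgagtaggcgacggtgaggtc
It held 2 matches before its start.

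Cholesterol synthesis genes had a median line difference of 0.26 over 24 genes, 15 with both SSP25 pairs above both SNU1079 pairs and 2 below, against 27.8% and 21.3% of all genes, and 0 passed in either fit. HMGCS1, which makes the precursor of mevalonate, had effects of -0.54 and 0.23, and TM7SF2, a sterol reductase, -0.23 and 0.76. PMVK, phosphomevalonate kinase, differed in the opposite direction, with a line difference of -0.34 ± 0.12. The 9 enzymes up to squalene had a median of 0.01 and the 11 enzymes after squalene 0.31.

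**Figure D3:**
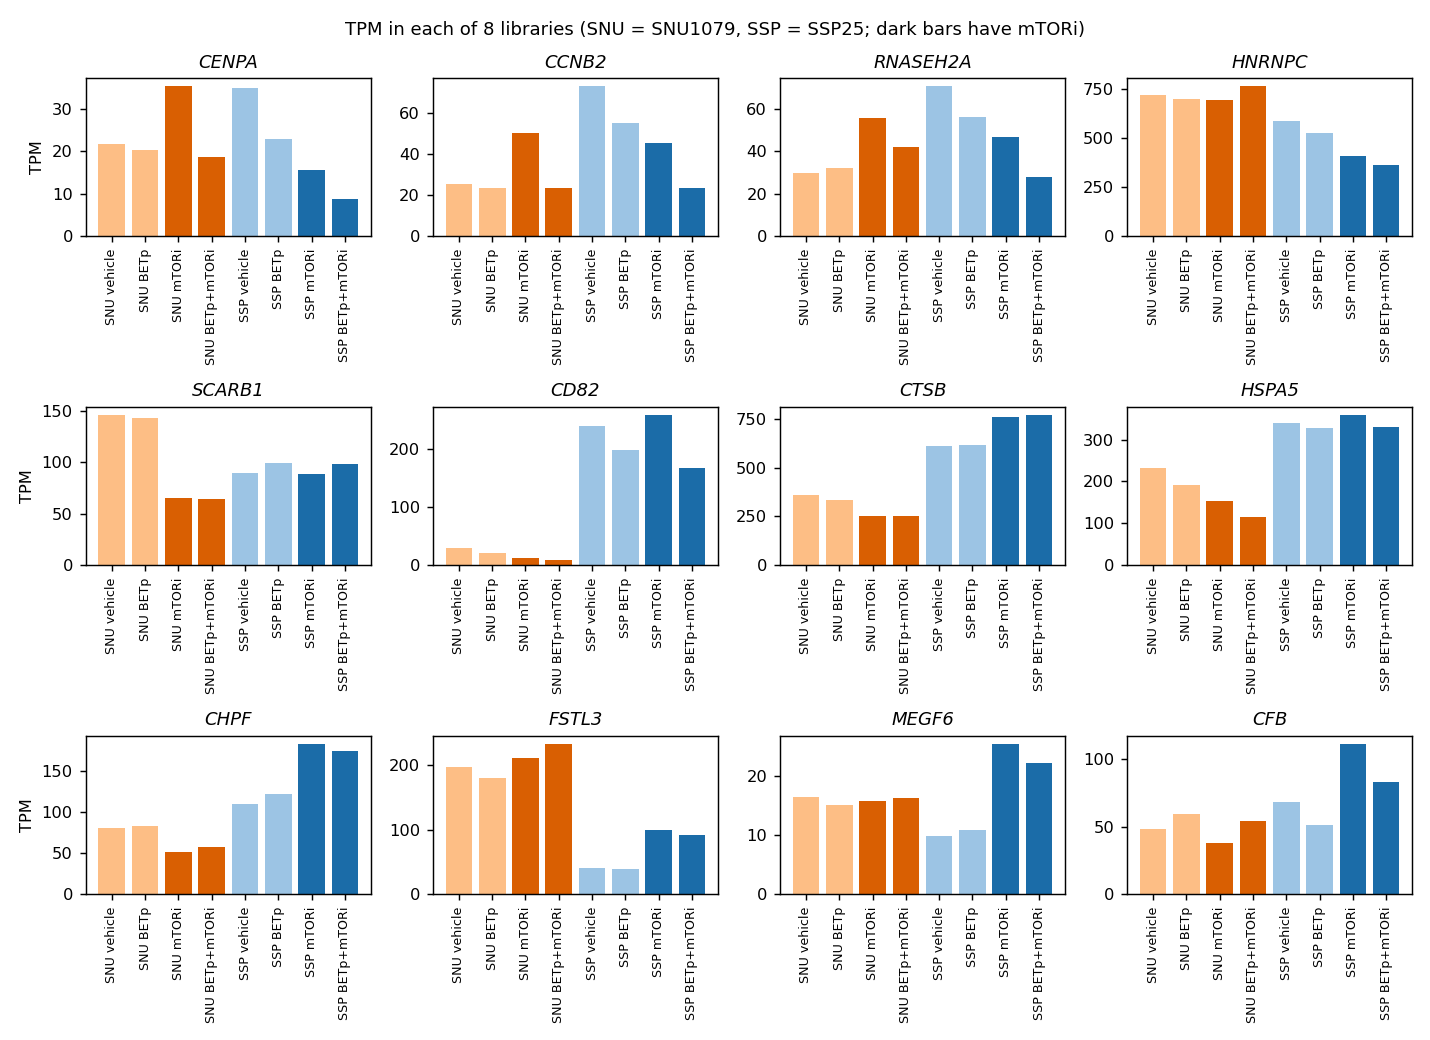
TPM of 12 genes in each of the 8 libraries, 1 bar per library, with dark bars for libraries with mTORi and each vertical axis starting at 0. SCARB1 is at 65.2 and 64.7 TPM in the SNU1079 libraries with mTORi and at 146 and 143 TPM without, while CHPF and FSTL3 are highest within SSP25 in its 2 libraries with mTORi.

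Lysosomal genes had a median mTORi effect of -0.20 in SNU1079 and 0.00 in SSP25, beside -0.14 and -0.13 for all genes, and of -0.07 and 0.09 after quantile normalization. Of 45 measured of 47 listed, 36 were lower in both SNU1079 pairs and 4 higher, against 57.7% and 13.7% of all genes. In SSP25 19 were lower and 16 higher, against 55.7% and 17.2%. Both SSP25 pairs lay above both SNU1079 pairs in 30 of 45, against 27.8% of all genes. An unadjusted p under 0.05 was found for 18, against 9.63%. Of the 45, 1, CTSB, passed in the fit over the 9139 genes alone, against 0.777% of all genes. The median line difference was 0.23 and 0.16 after quantile normalization. By role, hydrolases and their activators had a median of 0.29 over 14 genes, subunits of the proton pump V-ATPase 0.19 over 15, and membrane proteins, regulators and autophagy genes 0.20 over 16.

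CTSB, the protease cathepsin B, was at 361 TPM with vehicle and 254 TPM with mTORi in SNU1079, and at 332 TPM with BETp and 251 TPM with the combination. The SSP25 values were 613, 760.5, 613 and 770.3 TPM in that order. The pairs of each line lay close together, at -0.51 and -0.40 against 0.31 and 0.33, and the line difference was 0.77 ± 0.08 (adjusted p = 0.213 in limma). PSAP, the precursor of the saposin activators, had a line difference of 0.52 ± 0.11, and WIPI1, an early autophagosome protein, 0.69 ± 0.15. TFEB itself was lower in all 4 pairs, with effects of -0.71 in SNU1079 and -0.34 in SSP25. ATP6V1C1, a V-ATPase subunit, and GUSB, a glucuronidase, were lowest, at -0.20 ± 0.14 and -0.19 ± 0.13.

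TFEB and TFE3 bind an E-box, and the palindrome CACGTG was found in 10 of 37 windows of 31 matched lysosomal genes (27.0%), against 9.92% of the windows of all measured genes and 7.26% of all windows. CACGTG was also in 15 of 39 windows (38.5%) of ribosome biogenesis genes, whose median line difference was 0.01. It was thus not particular to the lysosomal list. Promoters of 2 cathepsin genes with this element are printed, in the same layout, with capitals marking it.
CTSA, chr20:45891215-45891334, + strand: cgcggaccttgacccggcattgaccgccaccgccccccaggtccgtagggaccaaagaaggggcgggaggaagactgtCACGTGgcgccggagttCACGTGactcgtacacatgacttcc
CTSD, chr11:1763928-1764047, - strand: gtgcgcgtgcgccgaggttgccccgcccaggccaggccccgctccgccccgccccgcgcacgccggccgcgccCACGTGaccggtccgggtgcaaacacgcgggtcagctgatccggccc
CTSA, cathepsin A, went from 1018 to 1330.3 TPM in SSP25 without BETp and from 211 to 172 TPM in SNU1079, with a line difference of 0.41 ± 0.14. CTSD, cathepsin D, had effects of -0.05 in SNU1079 and 0.24 in SSP25, a line difference of 0.29 ± 0.08.

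Among the 70 genes that were higher in SSP25 alone was FSTL3, a protein that binds and blocks activin (chromosome 19, 676392 to 683392, plus strand, GRCh37). It was at 39.6 and 39.4 TPM with vehicle and BETp in SSP25, and at 99.8 and 91.8 TPM with mTORi and the combination. In SNU1079 it was at 197, 181, 211 and 234 TPM with vehicle, BETp, mTORi and the combination, and the line difference was 1.02 ± 0.13. MEGF6, an EGF-domain protein, went from 9.77 to 25.5 TPM and from 10.8 to 22.1 TPM in SSP25, and lay between 15.1 and 16.5 TPM in SNU1079. CFB, complement factor B, had effects of -0.23 and 0.69, and MFGE8, a bridge between dying cells and phagocytes, -0.17 and 0.64. All 4 passed in the fit over the 9139 genes alone, and the SSP25 values without mTORi did not overlap those with it in any of the 4.

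Other genes had opposite effects, lower in SNU1079 and higher in SSP25. CHPF, a chondroitin polymerizing factor (chromosome 2, 220403676 to 220408531, minus strand, GRCh37), went from 80.9 to 50.9 TPM and from 83.0 to 57.5 TPM in SNU1079. In SSP25 it went from 110.2 to 184 TPM and from 122 to 175 TPM, a line difference of 1.21 ± 0.12 (adjusted p = 0.213 in limma). SAT1, which acetylates spermidine and spermine for their export, went from 374 to 186 TPM and from 364 to 211 TPM in SNU1079, while the SSP25 values went from 117 to 134 TPM and from 142 to 178 TPM. Its line difference was 1.15 ± 0.11. ADAP1, a GTPase-activating protein of ARF6, had a line difference of 2.01 ± 0.26, exceeded among protein-coding genes by SMIM11B, and by LUZP6, whose pairs overlapped between the lines, with TPM of 14.9, 11.9, 8.89 and 4.91 in SNU1079 and 5.57, 2.89, 15.6 and 6.11 in SSP25 for vehicle, BETp, mTORi and the combination.

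More genes had effects of this kind. SOD2, the mitochondrial superoxide dismutase, had effects of -0.66 and 0.34, TGM2, a transglutaminase, -0.69 and 0.51, and CLPB, a mitochondrial disaggregase, -0.60 and 0.63. CDKN1A, the CDK inhibitor p21, was at 488, 447, 360.0 and 412 TPM in SNU1079, against 46.9, 80.8, 61.1 and 114 TPM in SSP25 with vehicle, BETp, mTORi and the combination, and its line difference was 0.71 ± 0.13. IL32, a cytokine, had -0.26 and 0.57. These 5 passed in the fit over the 9139 genes alone. CRYAB, a small heat shock protein, did not, and its SSP25 pairs were 1.37 and 0.22. CDKN1B, the inhibitor p27, lay the other way, at -0.36 ± 0.15. Over the 17 measured G1 cyclins and CDK inhibitors the median line difference was -0.02.

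Transcripts of the mitochondrial genome had higher effects in SSP25 for all 13 protein-coding genes, with both SSP25 pairs above both SNU1079 pairs in 13 of 13, against 27.8% of all genes, and an unadjusted p under 0.05 in 13 of 13, against 9.63%. In the fit over the 9139 genes alone 6 of 13 passed, against 0.777%. The medians of the pairs were 0.48 and 0.48 in SSP25 and 0.09 and 0.18 in SNU1079, and the median line difference was 0.33. Under quantile normalization the median effect was 0.00 in SNU1079 and 0.32 in SSP25. That scaling sets values by rank alone, so it cannot decide whether the level of such abundant transcripts moved. Subunits of complex I had a median of 0.46 over 7 genes and those of complexes III, IV and V 0.30 over 6. These genes lie on 1 molecule and share its transcription, so they are not separate observations. A TPM is a share of the library, and the mitochondrial share went from 5.99% to 8.64% and from 7.22% to 10.1% in SSP25 and from 14.4% to 15.3% and from 17.1% to 19.2% in SNU1079.

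MT-ND6, the only protein gene on the light strand, was at 1997, 2843, 1835 and 2665 TPM in SNU1079, against 1311, 1615, 1831 and 2111 TPM in SSP25 with vehicle, BETp, mTORi and the combination. Its line difference was 0.54 ± 0.07 (adjusted p = 0.227 in limma). MT-CO2, a subunit of cytochrome c oxidase, went from 7411 to 10559 TPM and from 9214 to 13090.0 TPM in SSP25, and from 19513 to 18958 TPM and from 22852 to 24406 TPM in SNU1079. MT-CYB, cytochrome b, had the smallest line difference, 0.18 ± 0.07. Nuclear genes of the respiratory chain had a median line difference of 0.11 over 48 genes, with 27 above and 1 below by the pairs, against 27.8% and 21.3% of all genes. In SNU1079 45 of 48 were lower in both pairs, against 57.7%. COX6C, a nuclear subunit of cytochrome c oxidase, had effects of -0.42 and 0.01, and NDUFS1, a core subunit of complex I, -0.53 and -0.05.

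Cluster histone genes, a class best known for transcription in S phase, had a median line difference of 0.68 over the 14 measured of 25 listed. Of these, 8 had both SSP25 pairs above both SNU1079 pairs and 0 below, against 27.8% and 21.3% of all genes. Whether the transcripts measured here were made in S phase was not tested. Their mean log2 level was higher with BETp than with vehicle, 5.54 against 3.95 in SNU1079 and 5.46 against 3.71 in SSP25. The medians of the pairs were -0.76 and -0.10 in SNU1079 and 0.08 and 0.41 in SSP25, the opposite direction to the replication genes above, and 0 passed in either fit. Without the vehicle or the mTORi library of SNU1079 the median was 0.31, and without its BETp or combination library 1.01. HIST2H2BE, a gene for histone H2B, was at 7.59, 31.0, 3.72 and 26.0 TPM in SNU1079, against 4.48, 24.4, 6.50 and 41.2 TPM in SSP25 with vehicle, BETp, mTORi and the combination. HIST1H2AC, a gene for histone H2A, had effects of -0.45 and 0.57. Copies with near-identical sequence, such as HIST2H2AA3 and HIST2H2AA4, can share reads, so their values are uncertain.

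**Figure D4:**
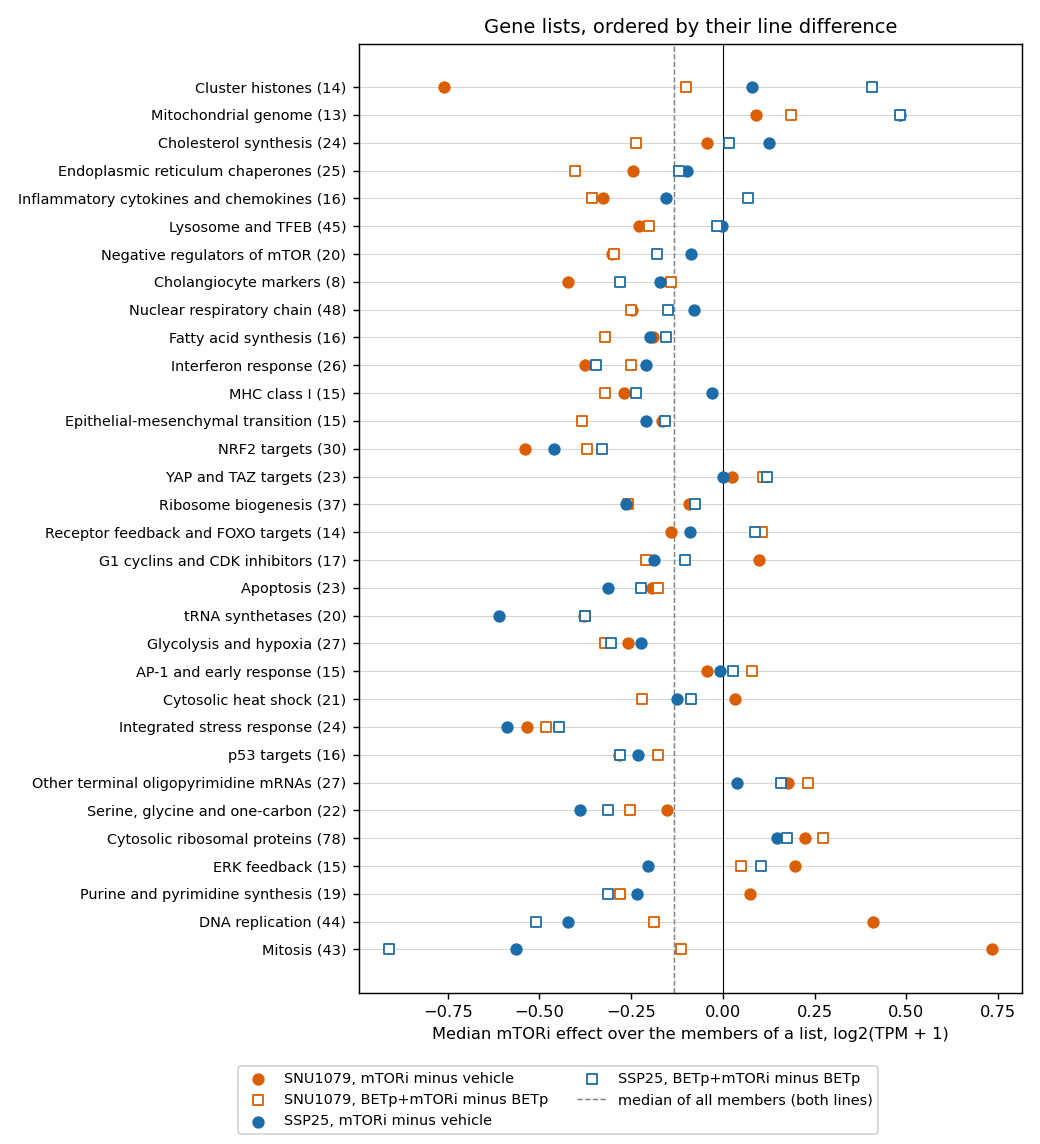
Median mTORi effect, in log2(TPM + 1), of each gene list with at least 5 measured genes, 1 row per list with the number of genes in brackets, as circles without BETp and open squares with BETp, orange for SNU1079 and blue for SSP25, with a dashed line at the median of all genes in both lines. Cluster histones are at the top with a line difference of 0.68 and mitosis genes at the bottom with -1.04.

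Some single genes had unequal effects in SNU1079 and SSP25, and all named here but ATF4 were lower in both lines. The median line difference of the lists they come from lay within 0.10 of 0. PSAT1, an aminotransferase of serine synthesis, was at 185, 98.5, 109 and 49.3 TPM in SNU1079, against 254, 179, 67.1 and 67.8 TPM in SSP25 with vehicle, BETp, mTORi and the combination. Its effects were -0.87 and -1.65, a line difference of -0.78 ± 0.20. PSPH, the phosphatase that completes serine synthesis, had -0.83 and -1.21. ATF4, the transcription factor of the integrated stress response, had 0.08 and -0.40, and TRIB3, a pseudokinase it induces, -0.52 and -1.09. Over the 24 measured genes of that response outside serine metabolism the median line difference was -0.07, with 6 genes above (25%) and 7 below (29.2%) by the pairs, near the 27.8% and 21.3% of all genes, and for the 20 tRNA synthetases it was -0.03. The aldo-keto reductases AKR1B10 and AKR1C1 differed in opposite directions. AKR1B10 had effects of -0.89 and -1.96 and AKR1C1 of -1.56 and -0.76, and the 30 NRF2 targets together had a median line difference of 0.06, which changed sign under quantile normalization. AKR1 genes are close paralogs that can share reads.

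Ribosomal protein mRNAs, whose translation depends on mTOR through a 5′ terminal oligopyrimidine stretch, were higher in both pairs in 74 of 78 genes in SNU1079 and 64 of 78 in SSP25, against 13.7% and 17.2% of all genes. Their median line difference was -0.10, with 39 of 78 below and 1 above by the pairs, against 21.3% and 27.8% of all genes, and -0.02 after quantile normalization. RPS6, the ribosomal protein phosphorylated by S6 kinase, went from 1595 to 2098 TPM and from 1375 to 1893 TPM in SNU1079, while the SSP25 values went from 2296 to 2511 TPM and from 1983 to 2309 TPM. Other lists with a median line difference within 0.10 of 0 were those for other terminal oligopyrimidine mRNAs, serine, glycine and one-carbon metabolism, p53 targets, fatty acid synthesis, ribosome biogenesis, glycolysis, interferon response, MHC class I, AP-1, YAP and TAZ targets, receptor feedback, heat shock, apoptosis and epithelial-mesenchymal transition. By the pairs, the serine, glycine and one-carbon list had 9 of 22 genes below and 2 above, against 21.3% and 27.8% of all genes. Its median line difference was -0.33 without BETp and -0.12 with it. Other terminal oligopyrimidine mRNAs had 9 of 27 below and 1 above. Fatty acid synthesis leaned the other way, with 7 of 16 above and 3 below, as did epithelial-mesenchymal transition, with 7 of 15 and 2. Single genes within the lists named above still differed. GAPDH, a glycolytic enzyme often used as a reference, was at 5525 to 6239 TPM in SNU1079, with an effect of 0.01, and had an effect of -0.46 in SSP25. B2M, the light chain of MHC class I, had -0.43 and 0.03.

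Several genes were looked up by name for their place in the drugs' pathways. BRD2 and BRD3, which are BET proteins, had line differences of 0.03 ± 0.12 and -0.21 ± 0.24, and CRBN, the cereblon that BETp binds, -0.08 ± 0.16. MYC, a transcription factor that drives growth, had -0.05 ± 0.15. CCND1, cyclin D1, had effects of 0.38 and 0.36, and IRS2, an adaptor of the insulin receptor, had 0.56 and 0.57. TXNIP, a brake on glucose uptake, had effects of 0.63 and 0.34. The direction of the line difference of BRD2, BRD3, CRBN, MYC, CCND1, IRS2 and DDIT4 changed with 1 library left out.

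Negative regulators and subunits of mTOR had a median line difference of 0.18 over 20 genes, with 10 above and 1 below by the pairs, against 27.8% and 21.3% of all genes, led by MAPKAP1, a subunit of mTOR complex 2, at 0.83 ± 0.18. Inflammatory cytokines and chemokines had 0.24 over 16 genes, purine and pyrimidine synthesis -0.19 over 19, and ERK feedback genes -0.16 over 15. The 8 measured bile duct markers had 0.18.

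Some of the largest values belonged to short or repeated transcripts, for which TPM tables are least certain. DLEU2_6, a conserved region of a long non-coding RNA, was listed at 0 in SNU1079 with vehicle and BETp and was at 20.2 and 25.3 TPM with mTORi and the combination. For SSP25 they were 22.4, 8.94, 59.5 and 28.4 TPM with vehicle, BETp, mTORi and the combination, and its line difference had the smallest adjusted p of the table, 0.0692 in limma. RPPH1, the RNA of ribonuclease P, SNORA73B, a small nucleolar RNA, the pseudogenes RPL39P3 and RPL32P29, the readthrough transcript INO80B-WBP1 and the near-identical copy SMIM11B also led the ranking by size. SMIM11B was at 9.08, 27.7, 0.95 and 16.1 TPM in SNU1079, against 0.44, 14.3, 27.0 and 16.4 TPM in SSP25, so its pairs in 1 line differed from each other by as much as those of the 2 lines.

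The line difference was compared without and with BETp, which use separate libraries. Across the 9139 genes it had Pearson's r = 0.373 and Spearman's rho = 0.399 between the 2 backgrounds, as a description, since genes are not replicates and share each library. Of 273 genes with a line difference of at least 1 in size without BETp, 230 (84.2%) had the same sign with BETp, and of 128 with at least 1 with BETp, 97 (75.8%) did so without it, against 61.6% of all genes. The mTORi effects of the 2 backgrounds had r = 0.367 in SNU1079 and 0.486 in SSP25, and the mean effects of the 2 lines had r = 0.189.

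**Figure D5:**
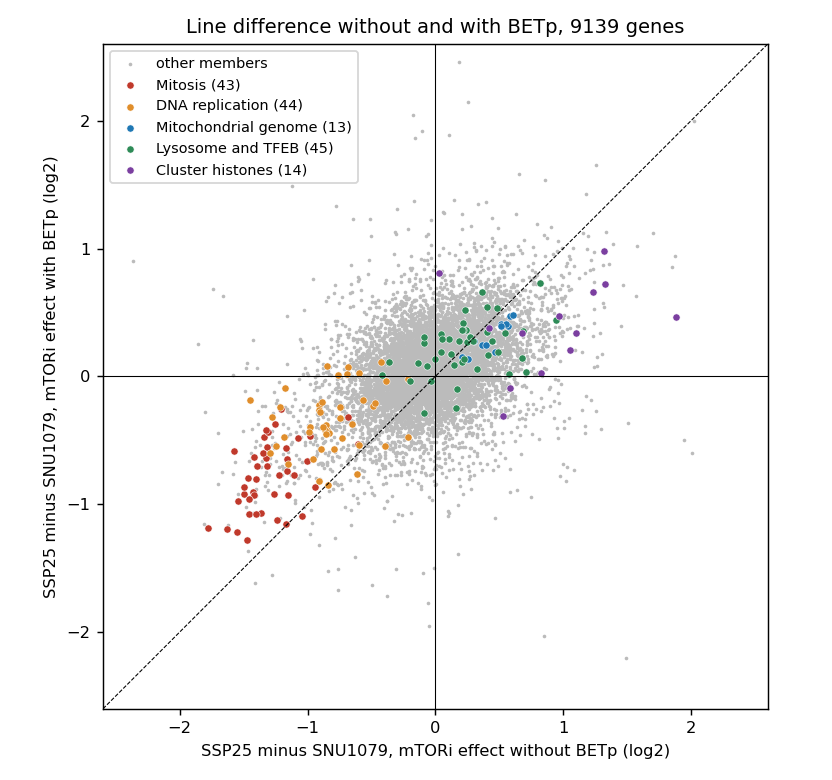
Line difference (SSP25 minus SNU1079) of the mTORi effect without BETp (x axis) and with BETp (y axis), in log2(TPM + 1), for 9139 genes, with the same 5 lists in colour and the dashed line marking equal values; 18 genes lie beyond the axes. Mitosis genes lie at the lower left, with medians of -1.32 without and -0.77 with BETp, and mitochondrial-genome transcripts lie above 0 in both.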

How the data were processed

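RNA of 8 cultures, 1 per line and treatment, was sequenced from strand-specific libraries. The authors deposited TPM (a transcript's share of its library, scaled for length) per gene. The submitters' processing notes name DESeq2, edgeR and the build GRCh37, while for the aligner and the annotation nothing is stated (not given in the sources used here). Both tools need counts, so limma 3.58.1 in R 4.3.3 was used on log2(TPM + 1).

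Effects and line differences were estimated with terms for line, BETp and mTORi within each line, with eBayes and an intensity trend, for the 16060 genes that 2 or more libraries held at no less than 1 TPM. P-values were two-sided with Benjamini-Hochberg adjustment over all genes and a threshold of 0.05. The 2 residual degrees of freedom came from departures from additivity alone. The spread behind the p-values thus mixes any interaction of the drugs with differences between these single libraries. Depth is unknown from TPM, so no counting interval is given. The fit was tested on simulated data. Tables were handled with Python 3.11.15, pandas 2.3.3 and numpy 2.4.6. Gene positions are from GENCODE 44 on GRCh37, and promoter sequences are from RefSeq on GRCh38.p14.

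The genes described and the gene lists were chosen with earlier results of these data known. Genes were named by a rule: the 12 largest line differences in each direction among genes whose pairs did not overlap between the lines and whose symbol is not a clone name, the 5 largest in each class of direction, up to 6 called and the 2 most extreme in each direction of each list, and genes looked up by name, of which some are not reported here. Since the fit over all genes called none, "called" was read from the fit over the 9139 genes alone. CAV1, CTSA, CTSD, FOXM1, HIST1H2AC, HIST2H2BE, LUZP6, MCM6, MCM7, PLK1, PSAP, SAT1 and SOD2 lay outside the rule and were chosen after their values were seen. Alternatives were a pseudocount of 0.1, no filter, the 9139 genes alone, quantile normalization, rescaling without mitochondrial-genome and ribosomal protein genes, robust variances without trend, a shared BETp effect, each background alone and each library left out.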

Additional observations from a re-analysis of the deposited data

Results flagged for a closer look

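For 2 gene lists both pair medians lay on opposite sides of 0 in the 2 lines. Cluster histones had -0.76 and -0.10 in SNU1079 and 0.08 and 0.41 in SSP25, a median line difference of 0.68. Cholesterol synthesis genes had -0.04 and -0.24 in SNU1079 and 0.13 and 0.02 in SSP25, a median line difference of 0.26. The difference between the lines was not tested for either list.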

How the results depend on the processing

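With 1 library per line and treatment and no read counts, the number of calls rested on the variance model. For the line difference, 0 genes passed over all genes and 99 over the 9139 alone. For the effect in SNU1079 the count of 1 went to 0 without the filter on low genes and with any library left out, 13 with a shared BETp effect and 1057 over the 9139 alone. For SSP25 the count of 0 went to 6 with a shared BETp effect and 812 over the 9139 alone. Combined with the fit over the 9139 genes, alternatives chosen after seeing the data gave 6 line differences with quantile normalization, 16 with rescaling, 1 with robust variances without trend, 0 with a shared BETp effect and 24 to 419 with 1 library left out. Those counts were 48, 417, 47 and 419 without the vehicle, BETp, mTORi or combination library of SNU1079 and 30, 31, 32 and 24 without those of SSP25. No gene called in that fit changed sign in these.

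The median line difference ranged with 1 library left out from -1.47 to -0.64 for mitosis genes and from 0.31 to 1.01 for cluster histones. It was 0.16 for lysosomal genes with quantile normalization and 0.46 for mitochondrial-genome transcripts without BETp. The line difference changed sign with 1 library left out for BRD2 (-0.10 to 0.15), BRD3 (-0.48 to 0.069), CRBN (-0.20 to 0.037), MYC (-0.24 to 0.14), DDIT4 (-0.014 to 0.59), CCND1 (-0.20 to 0.17), IRS2 (-0.17 to 0.18), PURA (-0.58 to 0.28) and HIST2H2AA3 (-3.21 to 6.02). BRD2 went to -0.020 with quantile normalization and -0.0025 with rescaling, and IRS2 to -0.10 and -0.026. The cause was not tested. Each background alone leaves no residual degrees of freedom and gave values without counts of calls. No paired analysis was possible because each group holds 1 library.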
